A study of Homo sapiens with 4 samples.

Results

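The Eph receptors and ephrins considered here were the receptors EPHA3, EPHA4, EPHA5, EPHA6, EPHA7, EPHB1 and EPHB2 and the ligands EFNA2, EFNA5 and EFNB2, 10 genes of the 20162 protein-coding genes examined. Binding of MEIS1 and MEIS2, homeodomain transcription factors of the TALE class, was mapped at these genes by chromatin immunoprecipitation and sequencing (ChIP-seq) in human neural stem cells (hNSC). The genes were chosen by the number and strength of the binding sites seen around them in these same libraries, together with further family members that had few or none, so the counts and strengths below describe the loci and no test was run on them. A site was assigned to a gene when its summit, the base of highest enrichment, lay in the gene body or within 500 kb of it. By this rule 57 of the 5169 reproducible sites of the series lay at the 10 genes, and 63 when EPHA7 was followed to 1 Mb. With all 10 genes extended to 1 Mb there were 80.

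The cells were untreated hNSC of a commercial supply in serum-free culture, and all libraries shared that state. There were 2 ChIP replicates and 2 Input samples, the latter being chromatin taken without the antibody step, over which fold enrichment is expressed. A reproducible site is one that the authors kept after comparing the peak ranks of both replicates. The study's methods describe 2 batches of hNSC processed side by side, and nothing states that they were separate donors. The antibodies were a mixture, anti-MEISa (K830) with anti-MEIS1 (K844), so a peak does not say which protein was bound. Enrichment is an average over the culture, so fewer bound cells and weaker binding per cell cannot be told apart. A peak list holds no expression, so neither the identity of the cells nor the level of any Eph gene was examined.

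Eph receptors are receptor tyrosine kinases that bind ephrins on the surface of a neighbouring cell. Class A ephrins are held in the membrane by a lipid anchor and class B ephrins span it, and signals pass both into the receptor cell and back into the ephrin cell. In the developing nervous system this contact signalling is known for growth cone repulsion, topographic maps and the sorting of progenitors and neurons at boundaries. MEIS proteins bind a short hexamer, TGACAG, often as partners of PBX proteins.

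Binding at these genes was concentrated at EFNA5, EFNB2 and EPHA3. EFNA5 had 18 reproducible sites, EFNB2 had 13 and EPHA3 had 10, followed by EPHA4 with 7, EPHA5 and EPHA7 with 3 each, EPHA6 with 2 and EFNA2 with 1. No reproducible site lay at EPHB1 or EPHB2. Thus 8 of the 10 genes had a site, where 67.5% of all protein-coding genes had at least 1 by the same rule, and 3 had 10 or more, where 0.362% of all genes did. These percentages belong to the measure on which the genes were chosen and nothing is read from them.

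**Figure D1:**
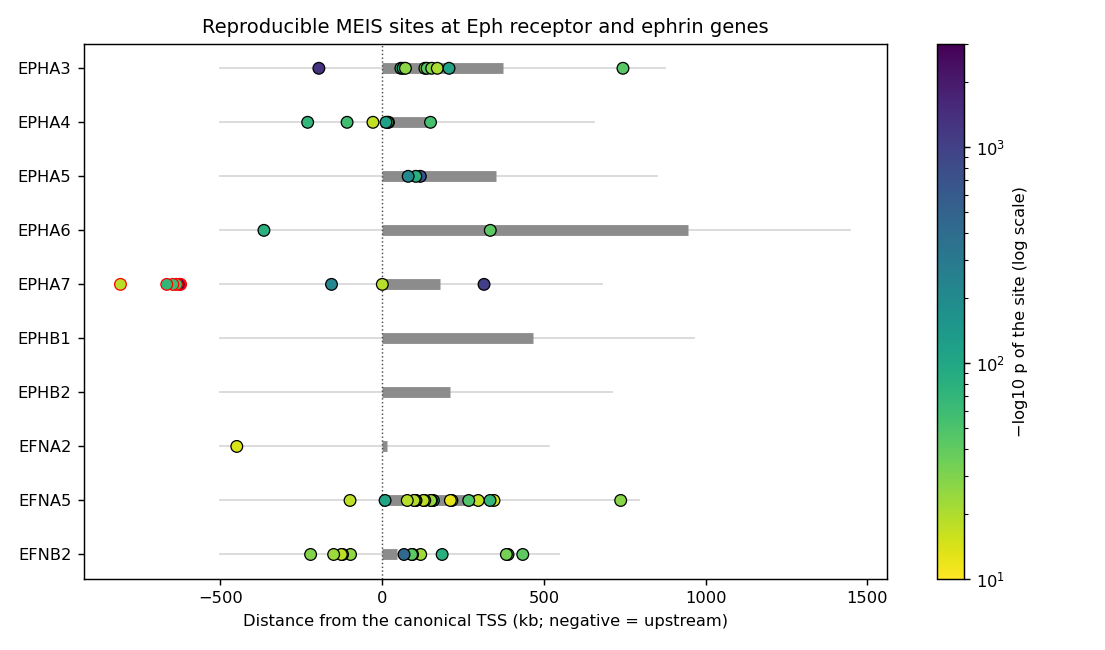
Each point is a reproducible MEIS site at its distance in kb from the canonical transcription start site (TSS) of the gene, coloured by the −log10 p of the site on a log scale. Thick bars are gene bodies, thin lines the 500 kb on either side, and red outlines mark the 6 further EPHA7 sites up to 1 Mb. EFNA5 and EPHA3 sites lie mostly in the body, EFNB2 sites lie on either side of it, and EPHB1 and EPHB2 have none.

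The reference sequences (GRCh37, plus strand, 101 bp centred on the summit) of the strongest site of each receptor gene are shown because they include the strongest MEIS sites at these genes and differ in whether they hold the MEIS hexamer. The EPHA7 site 626 kb upstream of the gene is added as the second strongest of the whole series. Capitals mark TGACAG, its first 5 bases TGACA, or the string GATGTC, on either strand.
EPHA7, 626 kb upstream, chr6:94755263-94755363: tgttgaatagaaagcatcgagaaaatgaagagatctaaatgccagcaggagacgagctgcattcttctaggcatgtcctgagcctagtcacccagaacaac
EPHA3, 195.2 kb upstream, chr3:88961487-88961587: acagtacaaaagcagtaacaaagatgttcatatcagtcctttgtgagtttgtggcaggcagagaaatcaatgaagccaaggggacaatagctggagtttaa
EPHA7, 315.1 kb downstream of the TSS, chr6:93814101-93814201: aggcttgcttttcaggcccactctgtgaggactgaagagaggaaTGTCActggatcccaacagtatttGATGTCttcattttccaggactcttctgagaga
EPHA5, intron 3, chr4:66417810-66417910: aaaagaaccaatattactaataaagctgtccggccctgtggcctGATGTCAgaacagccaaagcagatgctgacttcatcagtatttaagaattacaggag
EPHA4, intron 3, chr2:222424820-222424920: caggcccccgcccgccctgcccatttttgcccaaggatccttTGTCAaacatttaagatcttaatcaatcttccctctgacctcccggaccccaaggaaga
EPHA6, 365 kb upstream, chr3:96168339-96168439: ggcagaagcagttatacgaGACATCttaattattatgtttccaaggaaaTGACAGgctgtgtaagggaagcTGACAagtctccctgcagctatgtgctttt

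For EFNB2 and EFNA5 the strongest site of each is shown with the pair of EFNA5 sites that held the composite PBX-MEIS consensus, in which a PBX motif precedes the hexamer. The capitals have the same meaning.
EFNB2, 67.89 kb downstream of the TSS, chr13:107120071-107120171: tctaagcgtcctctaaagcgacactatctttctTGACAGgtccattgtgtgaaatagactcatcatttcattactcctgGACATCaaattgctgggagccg
EFNA5, intron 1, 9.315 kb from the TSS, chr5:106997273-106997373: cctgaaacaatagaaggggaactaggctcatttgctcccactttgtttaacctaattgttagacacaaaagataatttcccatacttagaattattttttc
EFNA5, intron 1, 158.7 kb from the TSS, composite, chr5:106847890-106847990: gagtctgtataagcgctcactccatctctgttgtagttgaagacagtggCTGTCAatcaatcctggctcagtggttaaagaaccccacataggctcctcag
EFNA5, intron 1, 152.6 kb from the TSS, composite, chr5:106854004-106854104: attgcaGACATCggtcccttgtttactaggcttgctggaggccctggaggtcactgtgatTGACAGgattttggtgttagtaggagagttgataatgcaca

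The receptor EPHA7, expressed in the developing cortex, had the strongest site of the 10 genes when followed to 1 Mb. Within 500 kb the strongest was an EPHA3 site, ranked 11. EPHA5 and EPHA3 also had sites between 500 kb and 1 Mb, the strongest of them ranked 139 and 420. The EPHA7 site lay 626 kb upstream of the TSS at chr6:94754146-94755995, in no protein-coding gene. In replicates 1 and 2 together it ranked 2 of 5169 by the −log10 p of the reproducible list. In replicates 1 and 2 it reached a −log10 p of 2882 and 2930 and was enriched 141-fold and 298-fold over input. By fold enrichment it ranked 3 among the sites in replicate 1 and 1 in replicate 2. EPHA7 was the nearest gene to it, and the next TSS of a protein-coding gene on the far side, that of MANEA, was 1270 kb from the site.

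This site was not alone. It was the strongest of 5 reproducible sites spread over 42.67 kb, at 622.7, 626, 635.4, 646.5 and 665.4 kb upstream. In the order of their distance, the other 4 were enriched 7.47-fold, 8.58-fold, 10.04-fold and 8.77-fold in replicate 1. In replicate 2 the values were 27.3-fold, 18.3-fold, 15.0-fold and 19.9-fold. The group therefore had a single site far above its neighbours in both replicates. A sixth distant site, 808.4 kb upstream, was weak in both replicates, at 4.76-fold and 8.68-fold.

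Within 500 kb of EPHA7 there were 3 sites of unequal strength. The strongest, 315.1 kb from the TSS and beyond the 3′ end of the gene at chr6:93813345-93815073, ranked 21 with a −log10 p of 1141 and 1029 in the replicates and fold enrichments of 62.5 and 136. A site 156.2 kb upstream, at chr6:94284895-94286009, ranked 273 with fold enrichments of 21.0 and 64.1. The third, in intron 1 and 0.848 kb from the TSS at chr6:94127908-94130298, ranked only 3988 with fold enrichments of 5.68 and 7.53. The promoter-proximal site of EPHA7 was thus the weakest of the 3 in both replicates. The gene lies in a wide interval with no other protein-coding TSS, from MANEA 1896 kb upstream of the EPHA7 TSS to MAP3K7 2832 kb downstream, and all 9 sites had EPHA7 as the nearest gene.

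**Figure D2:**
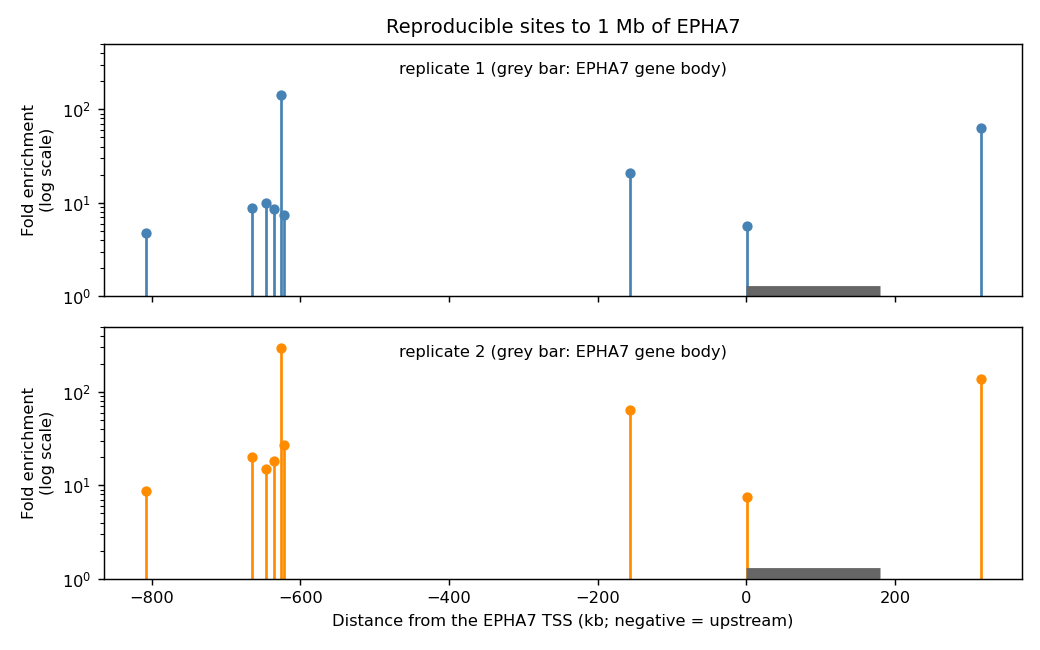
Fold enrichment over input (log scale) of the 9 reproducible sites within 1 Mb of EPHA7 in replicate 1 (upper panel) and replicate 2 (lower panel), against the distance from the TSS in kb; the grey bar is the gene body. The 3 highest sites, 626 kb upstream, 315.1 kb downstream and 156.2 kb upstream, keep the same order in both replicates, and the site at the TSS is among the lowest.

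EPHA3, a receptor for class A ephrins including ephrin-A5, had 10 sites, of which 8 were intronic. The strongest was again distal and upstream, 195.2 kb from the TSS at chr3:88959563-88962152, with a −log10 p of 1326 and 1301 and fold enrichments of 83.8 and 160, and it ranked 11. The intronic sites were all in introns 2 and 3, with 3 sites in intron 2 and 5 in intron 3, which are 82.59 kb and 130.4 kb long and make up 22.1% and 34.8% of the gene body. The sites thus lay in the longest introns of the gene. Of the intronic sites, the strongest by rank was 206.9 kb from the TSS (rank 644, 13.0-fold and 20.7-fold), followed by the one 64.89 kb from the TSS (rank 711, 12.6-fold and 37.8-fold). The other 6, at 58.12, 72.29, 132.4, 139, 153.4 and 170.8 kb, had fold enrichments between 4.12 and 9.35 in replicate 1 and between 7.64 and 15.2 in replicate 2. A single site lay 744.5 kb from the TSS beyond the 3′ end, at 7.52-fold and 15.0-fold. All 10 sites had EPHA3 as the nearest gene.

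EPHA4, a receptor that binds ephrins of both classes and acts in the guidance of motor axons, had 4 intronic sites and 3 upstream ones. Of the intronic sites 3 lay close together in intron 3, at 12.15, 17.25 and 19.84 kb from the TSS, an intron of 62.56 kb. The replicates differed in which of these was strongest. In replicate 1 the site at 12.15 kb (chr2:222424341-222425399) was higher, 14.6-fold against 9.47-fold at 19.84 kb, whereas in replicate 2 the site at 19.84 kb (chr2:222416715-222418850) was higher, 44.9-fold against 26.9-fold. The third, at 17.25 kb, was the lowest in both replicates, at 5.56-fold and 8.93-fold. The remaining intronic site was in intron 17, near the 3′ end of the gene, and had nearly equal enrichment in the replicates, 13.8-fold and 13.9-fold. The upstream sites, at 28.15, 108.1 and 229.9 kb, were higher the farther they lay from the gene in both replicates, from 4.65-fold over 8.85-fold to 12.9-fold in replicate 1 and from 7.07-fold over 13.4-fold to 18.04-fold in replicate 2.

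At EPHA5, a partner of ephrin-A5 in axon mapping, all 3 sites were in intron 3, an intron of 106.1 kb. They were few but strong. The site 118.3 kb from the TSS (chr4:66417287-66419160) ranked 60, with a −log10 p of 664 and 677 and fold enrichments of 38.6 and 88.5. The site at 80.68 kb ranked 294 with 20.3-fold and 52.7-fold, and the site at 104.2 kb ranked 907 with 9.51-fold and 20.4-fold. The order was the same in both replicates. EPHA5 also had the site closest to the assignment distance on its outer side. It lay 508.8 kb upstream, ranked 139 and had fold enrichments of 37.01 and 65.1, while the next sites outside, 513.9 kb from the EFNA5 body and 514.3 kb from the EPHA6 body, had 4.23-fold and 12.8-fold and 5.05-fold and 10.2-fold. Just inside were an EFNA5 site 443.4 kb beyond the body, with 5.73-fold and 9.94-fold, and the EFNA2 site described below.

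EPHA6, the longest gene of the 10 at 947 kb, had only 2 sites. The stronger was 365 kb upstream at chr3:96167974-96169818 (rank 908, 11.5-fold and 18.8-fold). The other was in intron 3, the longest intron at 238.3 kb, 334.5 kb from the TSS (rank 1762, 7.14-fold and 14.7-fold).

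Neither of the class B receptors had a reproducible site, although each replicate had peaks around them. EPHB1, which acts in the routing of retinal axons at the optic chiasm, had 14 peaks in replicate 1 and 12 in replicate 2, of which 4 in each overlapped a peak of the other list. The strongest was 461.4 kb upstream in replicate 1 (4.68-fold, −log10 p 16.7) and nearer to AMOTL2, and in replicate 2 it was 357 kb upstream (5.68-fold, −log10 p 13.7) and nearer to ANAPC13. Each overlapped a weaker peak of the other replicate, 3.93-fold and 3.15-fold. EPHB2, a receptor known from excitatory synapses, had 19 and 26 peaks, of which 8 in each list were shared. Its strongest was 389.5 kb from the TSS within LUZP1 in replicate 1 (5.12-fold, −log10 p 24.7) and 210.1 kb upstream within ZBTB40 in replicate 2 (5.81-fold, −log10 p 15.2). At both genes the strongest peaks were therefore weak, lay nearer other genes and were not the same peak in the replicates. Both genes had peaks shared by the replicates that were not on the reproducible list, so its lack of sites there does not show an absence of binding.

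EFNA5, the ligand ephrin-A5 that forms repulsive gradients in target fields of growing axons, had the most sites of the 10 genes in the full reproducible list. This order changed with some of the lists used. The irreproducible discovery rate (IDR) is low where a site ranks both high and alike in the replicates. A weak site can therefore have a higher IDR even where its replicates are alike. At an IDR of 0.001 or less EFNB2 had 11 sites, EPHA3 had 9 and EFNA5 had 8. With the strongest peaks of replicate 1 alone EFNB2 had 16 and EFNA5 had 15. With those of replicate 2 alone EFNA5 stayed first, with 13 against 12 each at EFNB2 and EPHA3. EFNA5 was also first with the distance set to 100 kb (17 sites) or 1 Mb (22 sites). Of its 18 sites 13 were intronic, and 12 of these lay in intron 1, which spans 243 kb or 82.6% of the gene body. A further 4 sites were downstream and 1 was upstream. The sites were of modest strength. The strongest by rank were 9.315 kb from the TSS at chr5:106996396-106998003 (rank 658, 10.9-fold and 24.0-fold) and 158.7 kb from the TSS at chr5:106847424-106849047 (rank 661, 13.1-fold and 22.1-fold). The latter was higher in replicate 1 and the former in replicate 2, so their order was not settled. The median −log10 p of the EFNA5 sites was 23.3, with a lowest value of 12.7 and a highest of 109, where the median over all 5169 sites was 29.3. EFNA5 thus had many sites and no very strong one.

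The other intron 1 sites of EFNA5 lay at 77.91, 98.87, 102.4, 105, 127.6, 132, 150.9, 152.6, 211.2 and 215.8 kb from the TSS, with fold enrichments of 3.85 to 8.17 in replicate 1 and 6.33 to 11.9 in replicate 2. The intron 2 site, at 267.8 kb, had 7.26-fold and 13.1-fold. Among the downstream sites the one 333.7 kb from the TSS was the strongest, at 9.92-fold and 17.6-fold. At the sites 127.6 and 150.9 kb from the TSS enrichment was slightly higher in replicate 1, 6.48 against 6.33 and 8.03 against 8.01, and these were the exceptions among all 57 sites.

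EFNB2, the ligand ephrin-B2 with roles in vessels and in neural progenitors, had 13 sites and none in its body of 45.92 kb. There were 8 beyond the 3′ end and 5 upstream. The strongest lay 67.89 kb from the TSS, beyond the 3′ end at chr13:107119120-107121926, and ranked 111 with a −log10 p of 449 and 743 and fold enrichments of 29.0 and 97.3. The next by rank lay 122.1 kb upstream (rank 848, 11.3-fold and 20.1-fold). The next by fold enrichment was a wide site of 3926 bp at 185.7 kb (rank 916, 14.9-fold and 29.5-fold), which covered more than a single peak. Its value in the reproducible list, 80.1, was below the strongest replicate peaks within it, 162 and 169. The listed value of each of the other 56 sites was the smaller of its replicate values.

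The 5 upstream EFNB2 sites, at 97.41, 122.1, 125.7, 149.6 and 220.8 kb, were all nearer to the TSS of ARGLU1 than to that of EFNB2. Of these, 3 differed more between replicates than most sites did. Enrichment was 5.65-fold and 27.1-fold at 97.41 kb, 4.68-fold and 15.1-fold at 149.6 kb and 4.90-fold and 20.1-fold at 220.8 kb, whereas the median ratio of replicate 2 to replicate 1 over the 57 sites was 1.77. The cause of that difference was not tested.

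EFNA2, the ligand ephrin-A2, had 1 weak site. It lay upstream and nearer to another gene, ranked 4980 and had fold enrichments of 4.24 and 8.26. In replicate 1 the strongest peak around EFNA2 was another, within ABCA7 and 244.8 kb upstream (5.02-fold), which was not on the reproducible list.

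Gene bodies of these genes differ in length and a longer window holds more sites, so each gene was set beside the 200 protein-coding genes whose bodies were closest to it in length. EFNA5 (18 sites, median of its 200 genes 2) and EFNB2 (13 sites, median 1) each had more sites than any of their 200. EPHA3 was at percentile 98.5 (median 3) and EPHA4 at 96.5 (median 2). EPHA7 (66.8), EPHA5 (60.8) and EFNA2 (42.5) were in the middle of their length classes, EPHA6 was lower (27.5, median 4), and EPHB2 (9.25) and EPHB1 (8.5) were at the lower end with 0 sites against medians of 2 and 3. Among the 200 genes beside EPHB2 and EPHB1, 37 and 34 also had 0 sites. The family therefore ranged from the top to the bottom of the range of genes of like length. Over all protein-coding genes, 3 had as many sites as EFNA5 or more, itself included, and 23 had as many as EFNB2 or more.

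**Figure D3:**
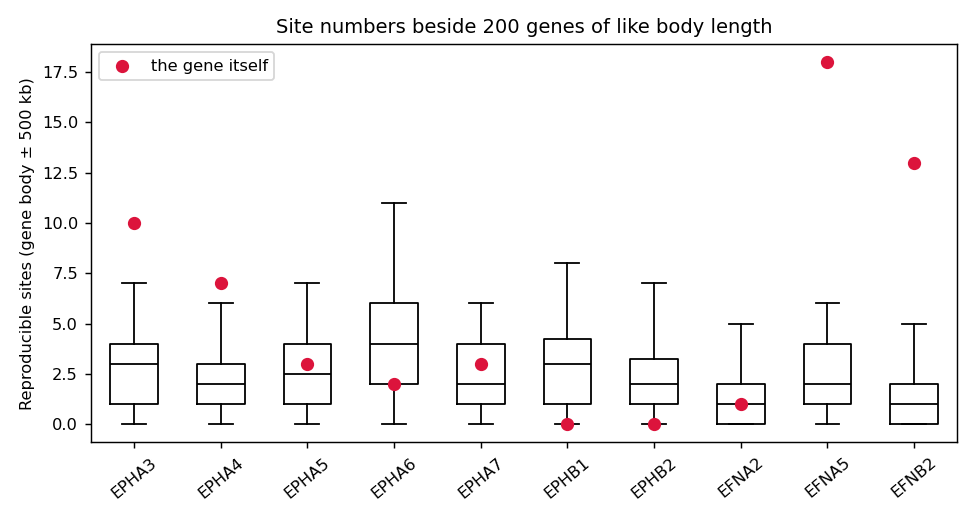
Number of reproducible sites (gene body ± 500 kb) at each gene (red points) beside the 200 protein-coding genes closest to it in length (box: quartiles and median; whiskers: percentiles 5 and 95). EFNA5 and EFNB2 lie above all 200 genes of like length and EPHB1 and EPHB2 lie at 0.

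Most sites at the 10 genes lay far from a TSS, as did most sites of the whole list. Of the 57, 2 were within 5 kb of a canonical TSS, where 8.43% of all sites were, and the median distance to the nearest canonical TSS was 132 kb against 100.5 kb over all sites. Of the 57, 30 were in the body of a gene of the family, all in introns, 13 were upstream and 14 downstream. No share over all sites was set beside these counts, and nothing is read from them. The genes with a site in the body numbered 6 of 10 (EPHA3, EPHA4, EPHA5, EPHA6, EPHA7 and EFNA5), where 8.33% of all protein-coding genes had one. The bodies of these 10 genes are long, with a median of 252.4 kb against 27.22 kb over all genes. Of the 30 intronic sites, 12 were in intron 1 of EFNA5 and another 15 in introns 2 and 3 of EPHA3, EPHA4, EPHA5 and EPHA6. For 51 of the 57 sites a gene of the family was the nearest gene, and the exceptions were the 5 upstream EFNB2 sites and the EFNA2 site. This count has no share over all sites beside it either. Of the 57 sites, 24 (42.1%) lay within 10 kb of another reproducible site, where 11.5% of all 5169 did. The genes were chosen partly by the number of sites around them, which bears on this spacing, so nothing is read from the contrast.

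Peaks close to the start of transcription were weak at these genes. Within 5 kb of the canonical TSS a reproducible site lay at 1 of the 10 genes, EPHA7, where 2.41% of all canonical TSS had one. Peaks of both replicates lay within 5 kb at 3 of 10 genes, where 15.9% of all TSS had them. At EPHA3 these were 3.59-fold and 4.62-fold, within 142 bp of the TSS, at EFNA5 they were 3.21-fold and 5.51-fold, within 998 bp of it, and at EPHA7 they were the site already described. At EPHA4 and EFNB2 only replicate 1 had a peak (2.90-fold and 2.54-fold), at EPHA5 only replicate 2 (3.28-fold), and at EPHA6, EPHB1, EPHB2 and EFNA2 neither did.

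The replicates differed in enrichment. Fold enrichment was higher in replicate 2 at 55 of the 57 sites, as it was at 97.4% of all sites, whereas −log10 p was higher in replicate 2 at 37 of them. An IDR of 0.001 or less was reached by 40 of the 57 (70.2%), where 60.4% of all sites reached it. The summits of the replicates were a median of 13 bp apart, against 11 bp over all sites. Of the 57, 3 were among the 100 strongest sites of the series and 15 (26.3%) among the 1000 strongest, which held 19.3% of all sites. The median −log10 p of the 57 was 40.6 against 29.3 over all sites, and the median fold enrichment was 7.08 against 6.38 in replicate 1 and 13.1 against 11.5 in replicate 2.

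**Figure D4:**
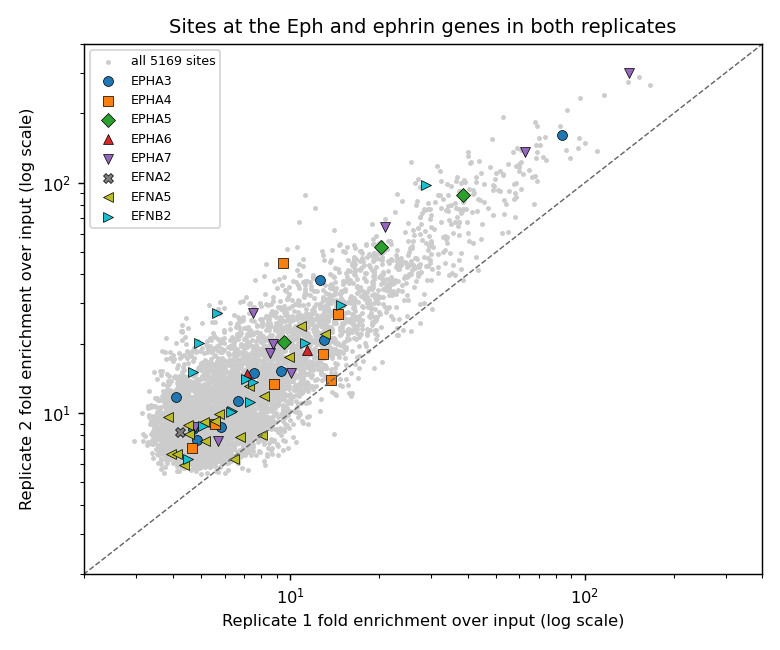
Fold enrichment over input in replicate 1 against replicate 2 (log scales) for all 5169 reproducible sites (grey) and for the sites at each Eph or ephrin gene (coloured symbols, including EPHA7 sites to 1 Mb); the dashed line marks equal values. Nearly all sites lie above the line. The highest coloured points are those of EPHA7 and EPHA3, followed by EPHA5 in replicate 1 and by EFNB2 in replicate 2.

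Behind these sites stood longer lists of single-replicate peaks. Around the 10 genes replicate 1 had 264 peaks and replicate 2 had 320, of which 55.3% and 45.0% overlapped a peak of the other replicate. Over the whole lists of 36796 and 47449 peaks, 49.0% and 38.0% did. The share was highest at EFNA5 in replicate 1, where 39 of 49 peaks overlapped (79.6%), and lowest in that replicate at EPHB1 and EFNA2 (28.6% each). EPHA3 had 35 and 44 peaks, EPHA4 28 and 32, EPHA5 16 and 31, EPHA6 18 and 23, EPHA7 21 and 20, EFNA2 21 and 12, and EFNB2 43 and 49, in replicates 1 and 2.

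The MEIS hexamer TGACAG, searched on both strands, occurred within 500 bp centred on the summit at 26 of the 57 sites (45.6%, Wilson 95% interval 33.4 to 58.4), where 58.3% of all sites held it. The composite PBX-MEIS consensus, which contains the hexamer, occurred at 2 (3.51%, against 4.93% of all sites), both in intron 1 of EFNA5. Sequences of other factor families were as follows. A SOX string (AACAATG or AACAAAG) was present at 24 sites (42.1%, all sites 34.4%) and the TEAD string GGAATG at 18 (31.6%, all sites 38.2%). An AP-1 string was present at 5 (8.77%, all sites 11.8%). The homeodomain core TAATTA was present at 18 (31.6%, interval 21.0 to 44.5, all sites 18.2%). The intervals of the SOX, TEAD and AP-1 strings held the share of all sites, and that of TAATTA did not. TAATTA was one of several strings searched and its share was not tested, so no enrichment is read from it. A match is a description of the letters and not of a bound factor. The intervals cover the number of sites alone, and sites at the same gene are not independent.

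By gene, the hexamer was counted over few sites, and differences between genes were not tested. It was present at 6 of 10 EPHA3 sites, 3 of 7 EPHA4 sites, 2 of 2 at EPHA6, 1 of 3 at EPHA7, 9 of 18 at EFNA5, and 4 of 13 at EFNB2, and at none of the 3 EPHA5 sites. In the narrower window of 101 bp it was present at 19 of 57 (33.3%, all sites 39.0%). The 4 strongest sites printed above, those of EPHA7 626 kb upstream, EPHA3, EPHA7 315.1 kb downstream and EPHA5, all lacked it there, and among the 100 strongest sites of the series 43 had it. In the sequence of the EPHA7 site 156.2 kb upstream, and at the EFNA5 site at 158.7 kb, it was centred 1.5 bp from the summit.

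The sequences that lacked the hexamer were then read for other strings near the summit, so the following strings were chosen from these sequences. TGACA, which is contained in TGACAG, was present in 101 bp at 43 of 57 sites (75.4%), where 70.0% of all sites and 20.8% of windows 2 kb to either side of them held it. GATGTC was present at 12 (21.1%), where 13.2% of all sites and 3.13% of the windows to the side held it. Its last 4 letters are also the start of TGACA read on the opposite strand, so the strings can overlap, as they did at the EPHA5 site. Either string was present at 47 of the 57 (82.5%, all sites 73.0%, windows to the side 22.2%), and 10 sites held neither. These 10 included the EPHA3 site 195.2 kb upstream and the EFNA5 site 9.315 kb from the TSS. The EPHA7 site 626 kb upstream, which lies outside the 57, held neither string as well. The printed sequences of these sites have no capitals. The absence says only that these letters do not occur in that window.

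**Figure D5:**
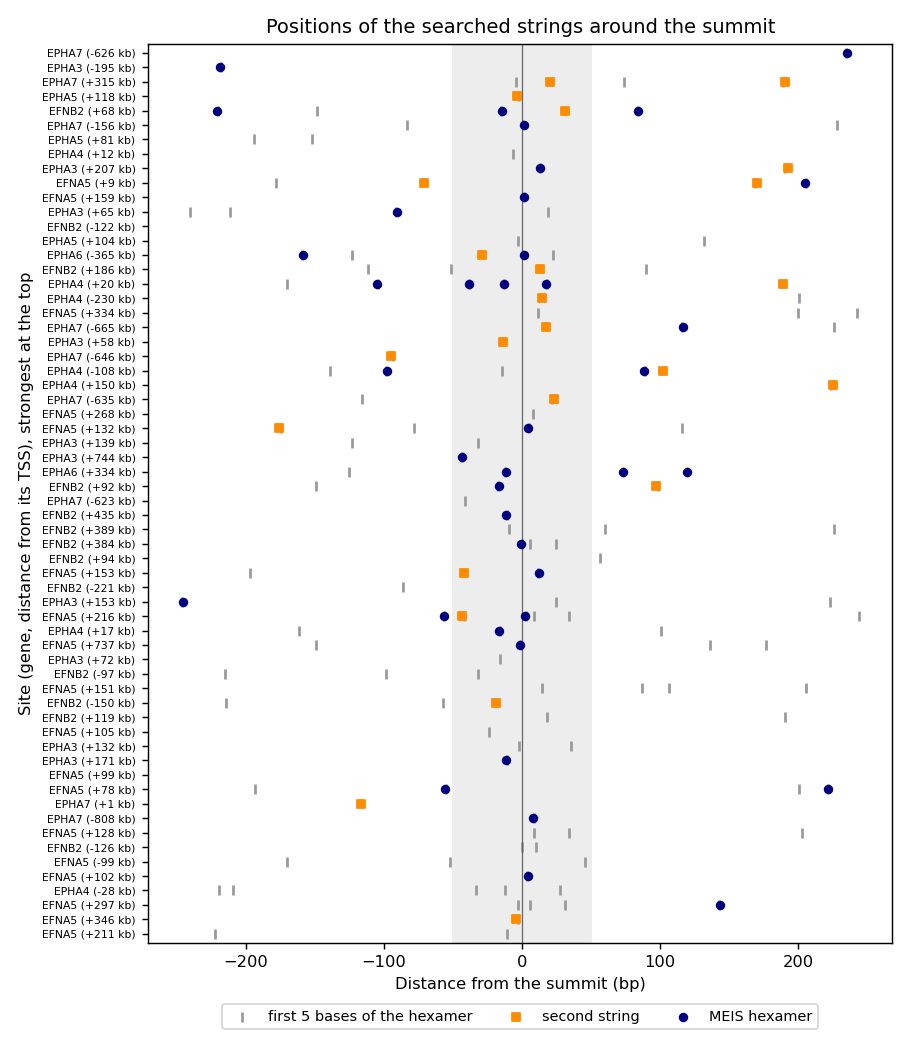
Positions in bp from the summit (x axis, 250 bp to either side) of the MEIS hexamer (blue circles), its first 5 bases (grey ticks, also drawn beneath each circle) and the second string, GATGTC (orange squares), at the sites ordered by strength, the EFNA2 site left out. The grey band is the 101 bp window; matches crowd around the summit in most rows, and the top rows, EPHA7 at 626 kb and EPHA3 at 195.2 kb upstream, have none in the band.

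Of the 12 Eph and ephrin genes not among the 10, 8 (66.7%) had a site, with a median of 2 sites over all 12 and at most 3, at EPHA10, EFNA1, EFNA3 and EFNA4. The 3 ephrin genes are neighbours on chromosome 1 and shared the same 3 sites. EPHB3 alone of the 12 had a site in its body and within 5 kb of its TSS. The 12 genes are short, with a median body of 17.3 kb. Among 32 genes whose proteins act downstream of or beside Eph receptors, such as adaptors and exchange factors, 23 (71.9%) had a site, 12 had one in the body and the median was 2. The highest numbers were at NCK2, an adaptor, with 8, GRIP1, a scaffold for class B ephrins, with 7, and ROCK1, a kinase, with 6. Over all protein-coding genes 67.5% had a site, 8.33% had one in the body and the median was 1. The 32 genes are long, with a median body of 156.8 kb against 27.22 kb over all genes. Their numbers were not set beside genes of like length, and nothing is read from them.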

How the data were processed

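MEIS1/2 ChIP-seq was carried out on 2 hNSC replicates, with 2 Input samples whose files were not used here. The authors trimmed adapters (cutadapt 1.16), mapped paired reads of 36 bp to GRCh37 (Bowtie2 2.3.0), kept a mapping quality of at least 30 (SAMtools 1.2), removed duplicates (Picard 2.15.0) and called peaks per replicate against input with MACS2 at a p-value of 0.01. The MACS2 version is not given in the sources used here. Reproducible sites came from IDR 2.0.3. In the deposited peak lists the authors give a fold enrichment over input (a linear ratio), a −log10 p and q and a summit offset, and in the deposited site list a scaled IDR score, a −log10 p and a −log10 IDR. The 8 per-replicate columns of that list were not used. A site's replicate values are those of the strongest overlapping peak. The lists hold no read counts, so depth is unknown, and which of the wash protocols described was applied to which replicate is not stated.

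Genes, introns and canonical TSS were taken from GENCODE 44 on GRCh37, and sequences from the same build. The sequence at the EFNA2 site is not reported here. Distances were measured from the summit to the canonical TSS, and replicate peaks were shared when they overlapped by 1 bp. Percentiles counted ties by their mid-rank. Wilson 95% intervals cover the number of sites only. Analyses used Python 3.11.15, pandas 2.3.3, numpy 2.4.6, scipy 1.17.1 and pysam 0.24.0, and the counting and string search were tested on simulated data. The genes named were all 10 members, each with its counts, its strongest site, the sites in the body or within 5 kb of the TSS, and, where it had none, its strongest replicate peaks; other EPHA7 sites to 1 Mb, the nearest and host genes of these sites, and the genes with the highest numbers in the other 2 lists were added, while further sites named were chosen after their values were seen. Members, lists and rules were chosen with earlier results of these data known, and TGACA and GATGTC after the sequences were seen. Alternatives changed the distance, the IDR, the gene model, the window, the number of genes of like length, the peak threshold, the overlap and the replicates used.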

Additional observations from a re-analysis of the deposited data

How the results depend on the processing

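Of 137 recomputed values, 100 stayed close to the reported one, 37 moved and 0 changed direction. Nearly all are counts, shares or percentiles, which have no direction to change, so the last number says nothing about stability. When only peaks reaching a −log10 p of 5 were kept, the genes had 138 peaks in replicate 1 and 176 in replicate 2, of which 84.8% and 65.3% were shared. With summits required within 100 bp, 43.6% and 35.9% were shared. The median strength of the 57 sites was 1.39 times that of all sites by −log10 p, but 1.11 and 1.14 times by fold enrichment in replicates 1 and 2, and it ranged from 1.21 to 1.28 when a replicate was left out. Counts at single genes depended on the distance. EFNB2 fell to 5 sites and EPHA7 to 1 at 100 kb, whereas EPHA5 had 7 and EPHB1 had 2 at 1 Mb. At an IDR of 0.001 or less EFNA5 had 8 sites, and EFNA2 had 0 there, at 100 kb and without replicate 1. EPHB2 had 1 site without replicate 2. By percentile among genes of like length EPHA5 reached 86.5 at 100 kb, EPHA7 92.5 at 1 Mb, and EPHA4 fell to 89.8 at 1 Mb. The share with TGACAG was 43.6% without the EFNA5 sites and 50% without those at EFNB2, settings chosen after seeing the data. No paired analysis was possible because the values come from peak lists with no test between groups. Depth is unknown, so weak sites missing from the list may be below detection.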
